A study of Mus musculus with 13 samples.

Results

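The 9 genes described here move, store or release iron: Fth1, Ftl1, Tfrc, Slc11a1, Slc11a2, Slc40a1, Hmox1, Ireb2 and Cp. They were picked by name, and each matched 1 Ensembl gene of the 52636 listed for every mouse and 1 of the 17086 with enough reads to test. RNA-Seq had been run on myeloid cells from PS2APP mice, in which transgenes for human presenilin 2 and human amyloid precursor protein cause β-amyloid plaque to accumulate. Of the 13 mice, aged 14 to 15 months and each 1 replicate, 7 were PS2APP;Trem2wt and 6 were PS2APP;Trem2ko. The former were 5 females with 2 males, the latter 5 females with 1 male. All mice of both groups came from breeders homozygous for the PS2APP transgene, and the Trem2 null allele, made on a C57BL/6N background, had been crossed into the C57BL/6J PS2APP line. Cells of cortex and hippocampus were sorted as CD11b+ CD45+ and negative for Ly6g and Ccr2, which retains microglia and a small share of perivascular macrophages, and amplified with a kit for low RNA input.

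Iron enters a cell bound to transferrin through the transferrin receptor (Tfrc), is carried out of endosomes and phagosomes by the metal transporters DMT1 (Slc11a2) and NRAMP1 (Slc11a1), is stored in ferritin shells built of heavy (Fth1) and light (Ftl1) chains, and leaves through ferroportin (Slc40a1), helped by the ferroxidase ceruloplasmin (Cp). Heme oxygenase 1 (Hmox1) opens the heme ring and frees its iron. Iron regulatory proteins, one of them encoded by Ireb2, bind RNA hairpins called iron responsive elements when iron is scarce: a hairpin in the 5′ UTR of ferritin or ferroportin RNA then blocks translation, while hairpins in the 3′ UTR of Tfrc RNA protect it from decay. Because the 5′ UTR hairpins act on translation, an RNA level does not report the protein level of those genes. Microglia are known to store iron in ferritin around plaques.

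The hairpins are shown because they are the sequences through which iron regulatory proteins act on the RNA of several members. Transcripts of GENCODE M21 (GRCm38) were searched on their own strand for a C, 5 bases, the loop CAGTGN and 5 bases pairing with the first 5. Pairs of G with U were allowed, and the form was written with the ferritin elements already known. Capitals mark the loop.
Fth1, 5′ UTR, chr19:9982733-9982759, plus strand: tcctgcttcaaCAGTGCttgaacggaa
Ftl1, 5′ UTR, chr7:45459780-45459806, minus strand: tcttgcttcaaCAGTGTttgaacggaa
Slc40a1, 5′ UTR, chr1:45925466-45925492, minus strand: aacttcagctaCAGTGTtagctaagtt
Tfrc, 3′ UTR, chr16:32631220-32631246, plus strand: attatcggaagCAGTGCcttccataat
Tfrc, 3′ UTR, chr16:32631599-32631625, plus strand: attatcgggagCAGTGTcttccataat
Tfrc, 3′ UTR, chr16:32631664-32631690, plus strand: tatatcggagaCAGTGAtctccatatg
Tfrc, 3′ UTR, chr16:32631711-32631737, plus strand: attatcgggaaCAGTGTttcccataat
The 3 members with a match in the 5′ UTR stand among 30 such genes, 0.137% of 21901 protein coding genes, and Tfrc is 1 of 128 genes (0.584%) with a match in the 3′ UTR. All 4 matches of Tfrc lie in exon 19. A match is a description of letters. The other 5 members held none in this form, which says only that these letters are not in the annotated UTRs. An isoform of Slc11a2 is known to carry an element in its 3′ UTR, which this form does not match.

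Library size ran from 26120961 to 120569609 reads on genes, with a median of 35201380 in PS2APP;Trem2wt and 55371726 in PS2APP;Trem2ko mice. Trem2 itself lay between 818 and 1244 nRPKM in PS2APP;Trem2wt and between 0.393 and 2.29 in PS2APP;Trem2ko cells (nRPKM is a read count per kilobase of gene and per library size, adjusted by a size factor). The 8 microglia markers summed to between 51873 and 59242 CPM (reads scaled to library size, not to gene length) in PS2APP;Trem2wt and between 49615 and 56161 in PS2APP;Trem2ko libraries. Cx3cr1 was the 1 microglia marker that fell in PS2APP;Trem2ko cells (log2 fold change -0.49, edgeR adjusted p = 0.0067). Red cell RNA was close to absent: the 7 markers measured summed to at most 4.72 CPM in PS2APP;Trem2wt and 6.11 CPM in PS2APP;Trem2ko libraries, and the median of Slc4a1 was 0.

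Ferritin heavy chain RNA far exceeded the RNA of the other members. The median over 13 mice was 1062 nRPKM for Fth1, followed by Slc11a1 (130.6), Slc40a1 (95.9), Hmox1 (21.6), Ftl1 (18.01), Slc11a2 (7.37), Ireb2 (6.14), Tfrc (3.44) and Cp (1.65). Fth1 exceeded 99.6% of the genes tested in mean CPM. Neighbours in this order were separated in every mouse, with ranges that did not touch, for Fth1 over Slc11a1, Slc40a1 over Hmox1 and Ftl1 over Slc11a2. Slc11a1 was above Slc40a1 in 7 of 7 PS2APP;Trem2wt mice and in 4 of 6 PS2APP;Trem2ko mice, with a ratio between 0.976 and 2.48. Hmox1 was above Ftl1 in 13 of 13 mice by a ratio of as little as 1.02. At the low end Slc11a2 was above Ireb2 in 12 mice, Ireb2 above Tfrc in 13 of 13 by a ratio of 1.09 to 2.53, and Tfrc above Cp in 11, with ranges that overlapped for each of these pairs. The place of Ftl1 in this order is uncertain for a reason given with its values.

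**Figure D1:**
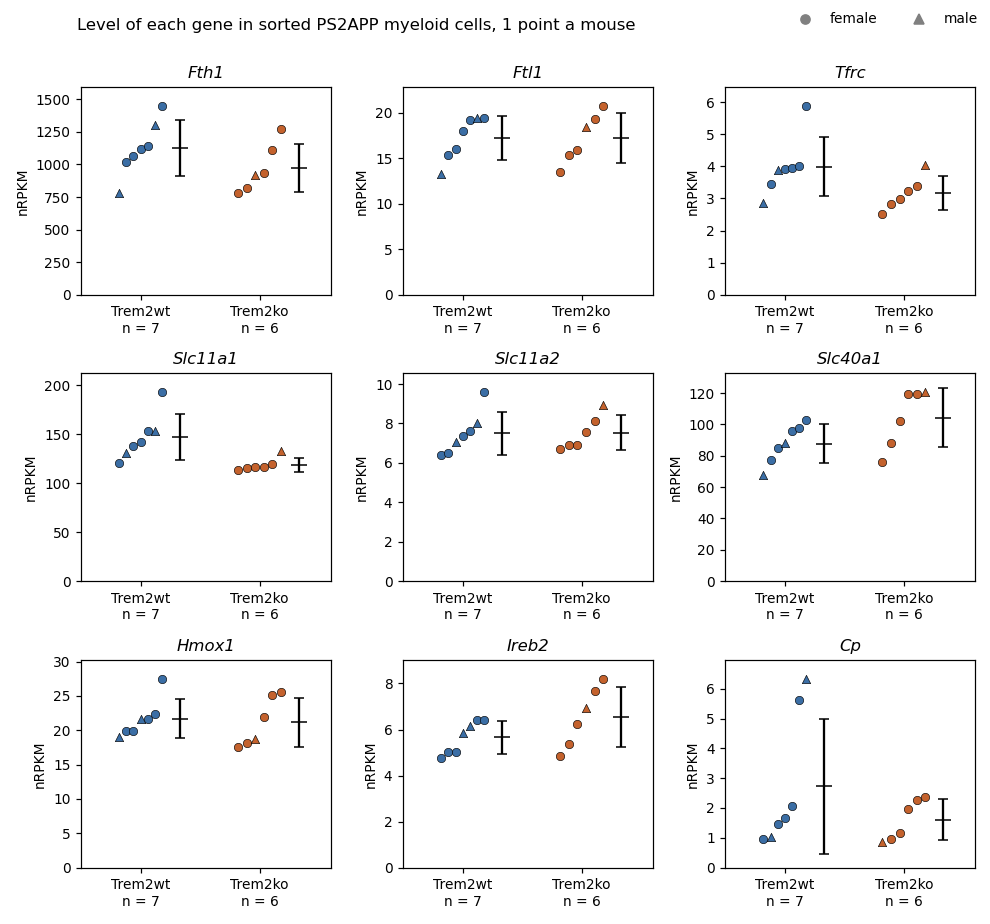
Level of each of the 9 genes in nRPKM (y axis, from 0) by genotype, with 1 point a mouse, circles for females and triangles for males, and the mean with its SD beside the points. The groups overlap in all 9 panels, the least in Slc11a1, where 5 of 6 PS2APP;Trem2ko mice lie below all PS2APP;Trem2wt mice, and 2 PS2APP;Trem2wt mice stand high in Cp.

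To ask whether the loss of Trem2 altered iron handling RNAs, the genotypes were compared with edgeR's quasi-likelihood test over all genes, with Benjamini-Hochberg adjustment and a call at an adjusted p of 0.05 or less. None of the 9 members was called (0 of 9), in a comparison that called 348 of 17086 genes (2.04%), of which 262 were lower (1.53%) and 86 higher (0.503%) in PS2APP;Trem2ko cells. At an unadjusted p of 0.05 or less there were 2 members, Slc11a1 and Tfrc, beside 14.8% of all genes. voom+limma called 0 members (2.55% of all genes) and had 2 at the unadjusted threshold (16.8%), and DESeq2 called 1, Slc11a1 (5.05%), and had 3 at the unadjusted threshold (16.3%). The genotypes overlapped in CPM for all 9 members, whereas 1.64% of all genes did not overlap. As PS2APP;Trem2ko over PS2APP;Trem2wt, the log2 fold change was negative in 6 members and positive in 3, with a median of -0.04 beside 0.0039 over all genes tested. The median absolute log2 fold change was 0.21 in the members and 0.16 in all genes. In sorted bulk RNA, fewer cells carrying a transcript and less of it per cell cannot be told apart.

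Fth1 (ENSMUSG00000024661, chromosome 19, 9980598 to 9985098), the chain with the ferroxidase centre, ranged in PS2APP;Trem2wt mice from 784 to 1449.5 nRPKM with a median of 1117. In PS2APP;Trem2ko mice it ranged from 779 to 1269 with a median of 928. The groups overlapped in most mice: 1 PS2APP;Trem2ko mouse was below, and none above, all PS2APP;Trem2wt mice. In turn 2 PS2APP;Trem2wt mice were above all PS2APP;Trem2ko mice. The means were 1126 ± 212 (SD, n = 7) and 973 ± 185 (SD, n = 6), and the log2 fold change was -0.21 ± 0.13 (SE; 95% interval -0.50 to 0.08; edgeR adjusted p = 0.503). Each library held 33722 to 132434 reads on Fth1.

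Ftl1 (ENSMUSG00000050708, chromosome 7, 45457944 to 45459884), the chain that supports the iron core, ranged from 13.2 to 19.4 nRPKM in PS2APP;Trem2wt (median 18.01) and from 13.5 to 20.7 in PS2APP;Trem2ko mice (median 17.2). The ranges lay on top of each other, and the means were 17.2 ± 2.41 (SD, n = 7) and 17.2 ± 2.72 (SD, n = 6). On the log2 scale the fold change was -0.0023 ± 0.12 (SE; edgeR adjusted p = 0.995), and its 95% interval of -0.25 to 0.24 allows a fold between 0.842 and 1.18.

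Much of the sequence of Ftl1 is not its own. Of the 50-base words in all its transcripts 58.4%, and of those in its protein coding transcripts 86.2%, also occur in another gene. The share in protein coding transcripts stands against 3.59% for Fth1, 4.35% for Slc11a2 and at most 1.12% for the other 6 members. Reads were single-end and 50 bases long, and only uniquely aligned reads were counted, so reads from stretches found at more than 1 place in the genome were not counted for any gene. Words were called shared by annotated gene. Gm10252 and Gm22133, which share some, lie on chromosome 7 as Ftl1 does, and whether each shared word has more than 1 place was not checked. The words of Ftl1 are shared with 17 genes on 9 chromosomes, 8 of them processed pseudogenes and 6 miRNA genes. The closest, Ftl1-ps1, holds 47.3% of the words of all Ftl1 transcripts and received 1 to 25 reads a mouse. The gap between the chains depended on the length used. Per 1000 words of all transcripts the median was 17.4 CPM for Ftl1 and 360 CPM for Fth1, and per 1000 words that are the gene's own it was 41.8 and 366. Counting only own words of protein coding transcripts, it was 185 and 845 CPM. The ratio of heavy to light chain RNA was therefore not measurable on an absolute scale. It was compared between mice because any words lost are the same in each. Whether the share of reads falling on those words was also the same was not checked.

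**Figure D2:**
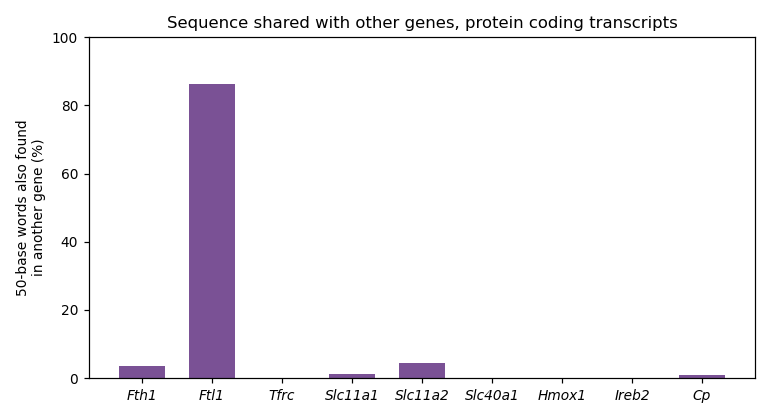
Share of the 50-base words of each gene's protein coding transcripts that also occur in transcripts of another gene (y axis, %). Ftl1 stands at 86.2% and the other 8 genes at 4.35% or less.

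Fth1 relative to Ftl1 leaned to the lower side in PS2APP;Trem2ko cells. The log2 ratio of CPM was 5.86 ± 0.12 (SD, n = 7) over the PS2APP;Trem2wt mice, the lowest at 5.73 and the highest at 6.06. Over the PS2APP;Trem2ko mice it was 5.66 ± 0.12 (SD, n = 6), the lowest at 5.48 and the highest at 5.78. The difference of -0.20 was larger than the SD within either group, the ranges overlapped, and no test was run on the ratios. In females alone it was -0.18.

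Among the uptake genes, Tfrc (ENSMUSG00000022797, chromosome 16, 32608920 to 32632794), the receptor for iron-loaded transferrin, ranged from 2.85 to 5.88 nRPKM in PS2APP;Trem2wt (median 3.92) and from 2.52 to 4.05 in PS2APP;Trem2ko mice (median 3.11). A single PS2APP;Trem2wt mouse was above all PS2APP;Trem2ko mice, and 2 PS2APP;Trem2ko mice were below all PS2APP;Trem2wt mice. The means were 3.996 ± 0.93 (SD, n = 7) and 3.17 ± 0.53 (SD, n = 6). Tfrc had a log2 fold change of -0.34 ± 0.15 (SE; 95% interval -0.65 to -0.03), with an unadjusted p of 0.0347 in edgeR and an adjusted p of 0.286. Without PS2APP;Trem2wt replicate 4, the highest mouse, it was -0.22 (edgeR adjusted p = 0.446). In the 10 females alone it was -0.51 (edgeR adjusted p = 0.108).

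Slc11a1 (ENSMUSG00000026177, chromosome 1, 74375195 to 74386062), which encodes the phagosomal transporter of macrophages, came closest to a call. Only its RNA was measured, and whether the protein is functional in these mice was not tested. Its nRPKM was 120.4, 130.6, 137.7, 142.5, 153.2, 153.2 and 192.7 in the 7 PS2APP;Trem2wt mice, and 113.1, 115.2, 116.3, 116.6, 119.3 and 133.0 in the 6 PS2APP;Trem2ko mice. Thus 5 of the 6 PS2APP;Trem2ko values lay under the lowest PS2APP;Trem2wt value, and 5 of the 7 PS2APP;Trem2wt values lay over the highest PS2APP;Trem2ko value. The PS2APP;Trem2ko mice were also less spread, with means of 147 ± 23.3 (SD, n = 7) and 119 ± 7.199 (SD, n = 6). Slc11a1 had a log2 fold change of -0.31 ± 0.09 (SE; 95% interval -0.51 to -0.11), a fold between 0.702 and 0.926. The unadjusted p was 0.0046 in edgeR, and 3.99% of all genes had a smaller one. The adjusted p was 0.116 in edgeR and 0.0287 in DESeq2, and between 0.0529 and 0.197 with each mouse left out in edgeR, so the call turned on the tool.

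Slc11a2 (ENSMUSG00000023030, chromosome 15, 100387898 to 100425072), its widely expressed relative, had similar levels in both groups. It ranged from 6.39 to 9.58 nRPKM in PS2APP;Trem2wt (median 7.37) and from 6.71 to 8.96 in PS2APP;Trem2ko mice (median 7.23). The groups overlapped throughout. Its log2 fold change was 0.0007 ± 0.10 (SE; edgeR adjusted p = 0.998), with a 95% interval of -0.21 to 0.21.

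Ferroportin, the exporter, leaned the other way. Slc40a1 (ENSMUSG00000025993, chromosome 1, 45908068 to 45926523) ranged from 67.7 to 102.8 nRPKM in PS2APP;Trem2wt (median 87.9) and from 76.3 to 120.4 in PS2APP;Trem2ko mice (median 110.8). The 3 highest PS2APP;Trem2ko mice exceeded all PS2APP;Trem2wt mice, and the other 3 lay within their range. The means were 87.8 ± 12.3 (SD, n = 7) and 104.3 ± 18.8 (SD, n = 6), and the log2 fold change was 0.25 ± 0.12 (SE; 95% interval -0.01 to 0.50; edgeR adjusted p = 0.359). In females alone it was 0.14 (edgeR adjusted p = 0.667).

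Read together within each mouse, the RNAs of the exporter Slc40a1 and the receptor Tfrc were farther apart in PS2APP;Trem2ko cells. Neither gene was called by itself. The other uptake and export members were not in this ratio: Slc11a1 (log2 fold change -0.31), Slc11a2 (0.0007) and Cp (-0.77). The log2 ratio of Slc40a1 to Tfrc in CPM was 3.85 ± 0.28 (SD, n = 7) in PS2APP;Trem2wt, with a range of 3.40 to 4.28, and 4.41 ± 0.21 (SD, n = 6) in PS2APP;Trem2ko, with a range of 4.26 to 4.77. The difference of 0.56 was larger than the SD within either group, and the ranges overlapped only at their ends. The lowest value, 3.40, was that of PS2APP;Trem2wt replicate 4, the mouse with the highest Tfrc. Receptor to heavy chain ferritin did not separate in this way: the log2 ratio of Tfrc to Fth1 was -5.56 ± 0.49 (SD, n = 7) and -5.67 ± 0.43 (SD, n = 6). Both ratios are given without a test.

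Cp (ENSMUSG00000003617, chromosome 3, 19957054 to 20009145), which oxidises iron as it leaves the cell, varied most between mice. Its nRPKM was 0.974, 1.03, 1.46, 1.65, 2.05, 5.62 and 6.33 in PS2APP;Trem2wt, and 0.862, 0.944, 1.18, 1.96, 2.28 and 2.38 in PS2APP;Trem2ko mice. The 2 highest values belonged to PS2APP;Trem2wt replicates 2 (a male) and 3 (a female), and the other 5 PS2APP;Trem2wt mice lay within the PS2APP;Trem2ko range. The highest mouse exceeded the lowest 7.34-fold, against at most 2.33-fold in the other 8 members. Cp had a log2 fold change of -0.77 ± 0.45 (SE; 95% interval -1.73 to 0.19; edgeR adjusted p = 0.458). It was -0.42 without replicate 2 alone, and 0.16 (edgeR adjusted p = 0.870) without both, which were left out because of these values.

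The markers of other cells in those libraries were examined as whole lists. The 9 monocyte and neutrophil markers summed to 356 CPM in PS2APP;Trem2wt replicate 2, the highest of all mice, and to 81.3 CPM in replicate 3, which is the PS2APP;Trem2wt median. Across mice this list ran from 26.8 to 356 CPM in PS2APP;Trem2wt and from 16.9 to 121 CPM in PS2APP;Trem2ko libraries, 7 of 9 markers were counted in every mouse, and Ly6g was at most 0.191 CPM. Endothelial and pericyte markers summed to 89.8 CPM in replicate 2, again the highest, and to 45.8 CPM in replicate 3. The oligodendrocyte markers were high in both, with sums of 437 and 433 CPM in replicates 2 and 3, the 2 highest of all mice. Across mice that list ran from 316 to 437 CPM in PS2APP;Trem2wt and from 285 to 412 CPM in PS2APP;Trem2ko libraries, 5 of its 6 markers were counted in every mouse, and Mbp, a myelin gene, was 273 and 272 CPM in replicates 2 and 3 against at most 229.7 in PS2APP;Trem2ko libraries. Astrocyte markers summed to 431 and 453 CPM in replicates 2 and 3, within the PS2APP;Trem2wt range of 374 to 497. Border macrophage markers summed to 145 and 122 CPM, within a PS2APP;Trem2wt range of 48.8 to 150.3, and neuron markers to 35.8 and 20.5 CPM, within a range of 13.5 to 44.4. The part of these cells in the Cp values was not tested.

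Ireb2 (ENSMUSG00000032293, chromosome 9, 54863789 to 54912530), one of the proteins that bind the hairpins above, ranged from 4.76 to 6.43 nRPKM in PS2APP;Trem2wt (median 5.85) and from 4.86 to 8.20 in PS2APP;Trem2ko mice (median 6.57). The 3 highest PS2APP;Trem2ko mice exceeded all PS2APP;Trem2wt mice and the rest overlapped. The log2 fold change was 0.21 ± 0.12 (SE; 95% interval -0.05 to 0.46; edgeR adjusted p = 0.458). Without PS2APP;Trem2ko replicate 4, the highest mouse, it was 0.13 (edgeR adjusted p = 0.676). The other iron regulatory protein, Aco1, also an aconitase, had a log2 fold change of -0.20 ± 0.10 (SE; edgeR adjusted p = 0.363), and Fbxl5, which directs the degradation of iron regulatory protein 2, one of -0.01 ± 0.06 (SE; edgeR adjusted p = 0.965).

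Hmox1 (ENSMUSG00000005413, chromosome 8, 75093621 to 75100589), the inducible heme oxygenase, ranged from 19.0 to 27.5 nRPKM in PS2APP;Trem2wt (median 21.6) and from 17.5 to 25.6 in PS2APP;Trem2ko mice (median 20.3). The means were 21.7 ± 2.81 (SD, n = 7) and 21.2 ± 3.58 (SD, n = 6), and 3 PS2APP;Trem2ko mice were below all PS2APP;Trem2wt mice while the others overlapped. The log2 fold change was -0.04 ± 0.11 (SE; edgeR adjusted p = 0.910), and the 95% interval of -0.27 to 0.19 allows a fold between 0.829 and 1.14. Hmox2, the constitutive enzyme, had a log2 fold change of 0.06 ± 0.06 (SE; edgeR adjusted p = 0.708).

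The wider set of iron and heme genes held 72 in 8 lists, with the 9 members among them. Of these, 62 had enough reads, 0 were called by edgeR (2.04% of all genes), and 13 had an unadjusted p of 0.05 or less (14.8% of all genes), 6 with a positive and 7 with a negative log2 fold change. voom+limma called 0 (2.55% of all genes) and had 15 at the unadjusted threshold (16.8%). DESeq2 called 6 (5.05% of all genes), which were Alas1, Isca2, Ppox, Slc11a1, Slc25a37 and Uros, and had 18 at the unadjusted threshold (16.3%). None of the 62 was free of overlap between genotypes, beside 1.64% of all genes. The median log2 fold change was 0.0081 over the 62 genes and 0.0039 over all genes tested. The 10 genes with too few reads included the mitochondrial ferritin Ftmt and the hormone gene Hamp, which encodes hepcidin, with at most 2 reads in any library.

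The 3 non-member genes with the smallest p had higher means in PS2APP;Trem2ko cells. Slc25a37, the mitochondrial iron importer mitoferrin 1, ranged from 3.19 to 5.55 nRPKM in PS2APP;Trem2wt and from 5.12 to 8.91 in PS2APP;Trem2ko mice, 5 of which were above every PS2APP;Trem2wt mouse. Its log2 fold change was 0.51 ± 0.14 (SE; edgeR adjusted p = 0.0764). Ppox, the oxidase before the last step of heme synthesis, ranged from 12.1 to 25.2 nRPKM in PS2APP;Trem2wt and from 22.3 to 34.4 in PS2APP;Trem2ko mice. It had a log2 fold change of 0.54 ± 0.15 (SE; edgeR adjusted p = 0.0790), and passed with sex as a covariate (edgeR adjusted p = 0.0406) and in females alone (edgeR adjusted p = 0.0495). Ppox passed in 4 of 23 alternatives and not in the other 19. Without PS2APP;Trem2ko replicate 1 its edgeR adjusted p was 0.180. Isca2, an iron-sulfur cluster assembly factor, ranged from 24.1 to 30.7 nRPKM in PS2APP;Trem2wt and from 30.4 to 41.6 in PS2APP;Trem2ko mice, with a log2 fold change of 0.30 ± 0.08 (SE; edgeR adjusted p = 0.0928).

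By list, the log2 fold changes ran as follows, with genes at an unadjusted p of 0.05 or less named after their values were seen. Over all genes 14.8% pass that threshold, and the lists are small. Iron uptake had 4 such genes of 10 tested, all with negative values: Slc11a1, Tfrc, Trf (-0.24), which encodes transferrin, and Slc39a14 (-0.36), the metal importer ZIP14. Iron export and its control had 1 of 3, Hfe (-0.24), the hemochromatosis protein. Heme synthesis had 3 of 9, with Ppox and Uros (0.36) positive and Alas1 (-0.20), the first enzyme of the pathway outside red cells, negative. Mitochondrial iron and iron-sulfur clusters had 3 of 10, all positive: Slc25a37, Isca2 and Slc25a28 (0.18). The list of NRF2, BACH1 and common NRF2 targets had 2 of 11, Gclc (0.24) and Bach1 (-0.35), the latter a repressor of Hmox1. Ferritin turnover (5 tested), iron regulatory proteins (3 tested) and heme breakdown, uptake and transport (11 tested) had 0.

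**Figure D3:**
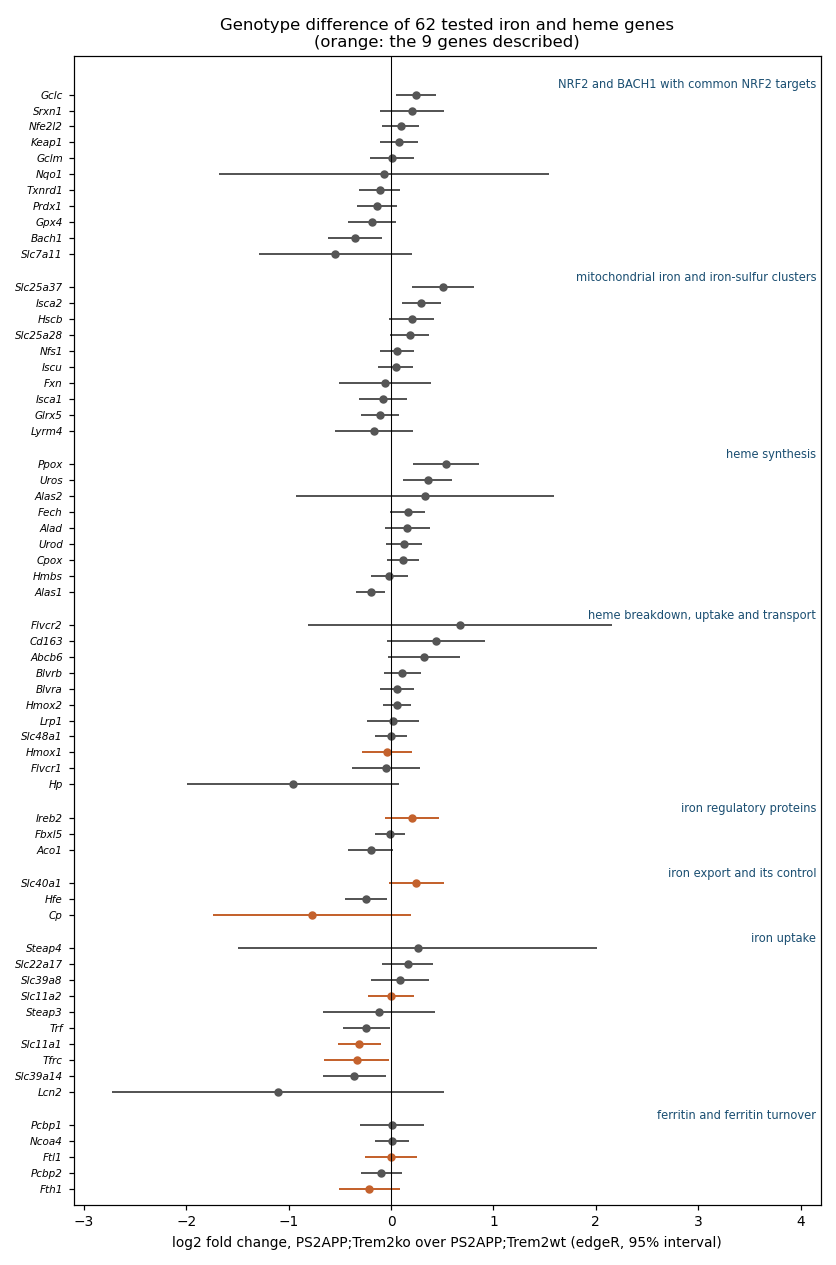
Log2 fold change of PS2APP;Trem2ko over PS2APP;Trem2wt with its 95% interval from edgeR (x axis) for the 62 tested iron and heme genes (y axis) in 8 lists, with the 9 members in orange. Most intervals span 0, and the 13 genes whose unadjusted p is 0.05 or less lie on both sides.

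Across mice of the same genotype, several members varied together. Log2 CPM was centred on the mean of each genotype, and 45 relations (36 pairs of members and each member with log2 total counts) were tested over 13 mice by two-sided permutation within genotype, with 100000 resamples and Benjamini-Hochberg adjustment. Of these, 7 passed by Pearson's r, 2 of them also by Spearman's rho. The ferritin chains were the most alike, with r = 0.90 (permutation adjusted p = 0.0013) and rho = 0.91 (permutation adjusted p = 0.0045), and r = 0.84 without the 2 mice farthest from the median of Fth1. Slc11a1 and Slc11a2 followed each other within genotype with r = 0.88 (permutation adjusted p = 0.0101) and rho = 0.85 (permutation adjusted p = 0.0256), and r = 0.77 without the 2 mice farthest from the median of Slc11a1.

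Library size moved with that second pair. Slc11a2 had r = 0.76 with log2 total counts (permutation adjusted p = 0.0429; rho = 0.57, adjusted p = 0.193), and Slc11a1 r = 0.65 (permutation adjusted p = 0.0813; rho = 0.71, adjusted p = 0.145). The part of library size in the relation of the transporters was not tested. Fth1 and Ftl1 had r = -0.37 and -0.23 with log2 total counts (permutation adjusted p = 0.458 and 0.664; rho = -0.37 and -0.18, adjusted p = 0.420 and 0.776).

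Hmox1 was in 3 of the 4 other pairs that passed by Pearson's r. It moved with Fth1 (r = 0.77, permutation adjusted p = 0.0429; rho = 0.63, adjusted p = 0.145; r = 0.72 without the 2 mice farthest from the median of Fth1) and with Cp (r = 0.71, permutation adjusted p = 0.0429; rho = 0.64, adjusted p = 0.145; r = 0.61 without the 2 mice farthest in Hmox1). It moved against Ireb2 (r = -0.77, permutation adjusted p = 0.0462; rho = -0.64, adjusted p = 0.189; r = -0.69 without the 2 mice farthest in Hmox1). Slc40a1 moved against Cp (r = -0.75, permutation adjusted p = 0.0400; rho = -0.62, adjusted p = 0.145; r = -0.64 without the 2 mice farthest in Slc40a1), and its relation to Hmox1 narrowly missed (r = -0.75, permutation adjusted p = 0.0538; rho = -0.70, adjusted p = 0.145). None of these passed by rank. The mice left out thus differed between pairs. PS2APP;Trem2wt replicate 2, high in Cp, was kept for Hmox1 with Cp, and replicate 3, also high in Cp, for Slc40a1 with Cp.

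**Figure D4:**
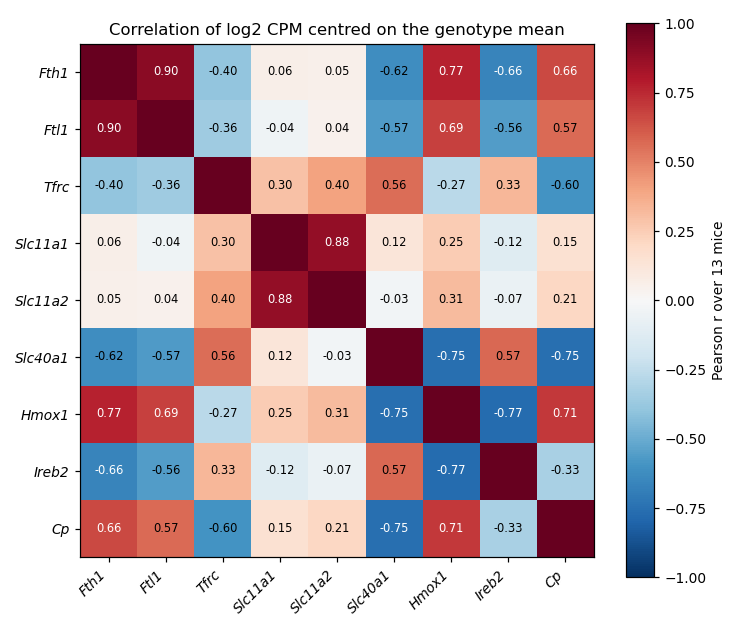
Pearson r between each pair of the 9 genes over 13 mice, from log2 CPM centred on the genotype mean, on a colour scale from -1 (blue) to 1 (red). Fth1, Ftl1, Hmox1 and Cp have positive r with each other and negative r with Slc40a1 and Ireb2, and Slc11a1 and Slc11a2 form a pair of their own at 0.88. Most of these r did not pass the test: of all 45 relations, 7 passed by Pearson's r, 1 of them with total counts. The r of Ireb2 with Cp is -0.33 (permutation adjusted p = 0.458).

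**Figure D5:**
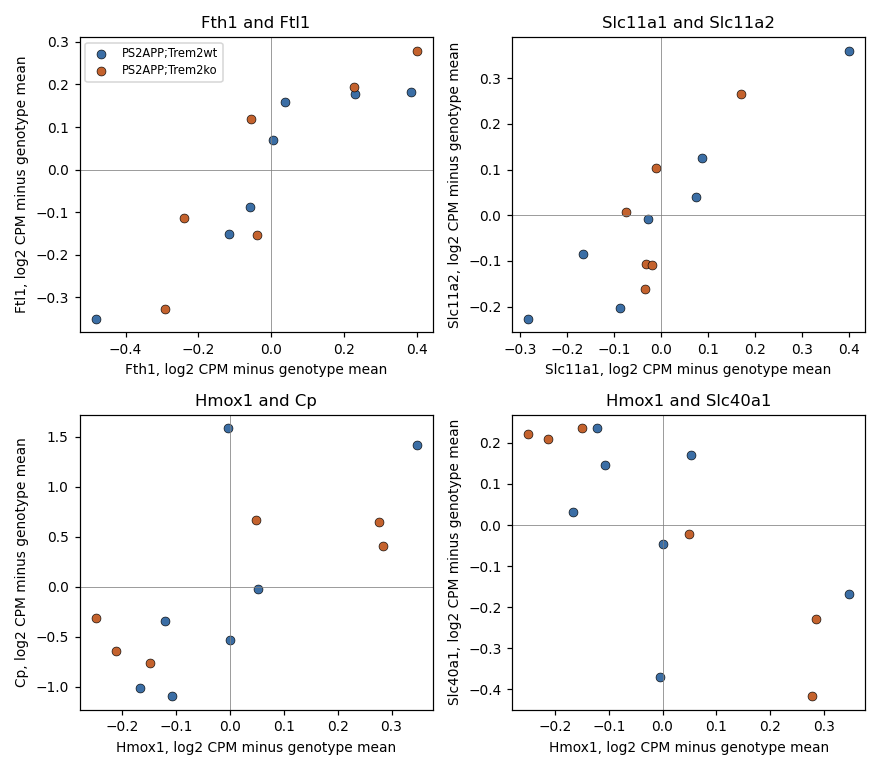
Centred log2 CPM of 4 pairs of genes, with 1 point a mouse coloured by genotype and both axes in log2 units from the genotype mean. Fth1 and Ftl1, and Slc11a1 and Slc11a2, rise together in both genotypes, Hmox1 and Cp rise together with 2 PS2APP;Trem2wt mice high in Cp, and Hmox1 and Slc40a1 run in opposite directions (r = -0.75).

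The genes whose centred pattern was most like that of the ferritin chains and Hmox1, among 8522 genes with a mean of at least 10 CPM over 13 mice, are given as a description. For Fth1 these included Gm6977 (r = 0.97), an X-linked processed pseudogene that holds 58 of the 50-base words of Fth1, and the ribosomal protein gene Rpl14 (0.95). For Ftl1 they included the respiratory complex gene Ndufb8 (0.92) and the ribosomal protein gene Rps3 (0.92). For Hmox1 they were the endosomal tetraspanin Cd63 (0.96), the peroxiredoxin Prdx4 (0.95) and Cd274 (0.94), which encodes PD-L1.

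Between the 3 males and 10 females, compared in a fit with genotype, edgeR called 0 of 9 members, and 4 of 17086 genes in all (0.0234%). At an unadjusted p of 0.05 or less there were 0 members beside 6.95% of all genes, and voom+limma called 0 members. Values ran from a log2 fold change (male over female) of -0.15 ± 0.13 (SE; edgeR adjusted p = 0.830) for Hmox1 to 0.13 ± 0.57 (SE; edgeR adjusted p = 0.973) for Cp. Hmox1 averaged 19.8 ± 1.58 nRPKM in males and 21.95 ± 3.28 in females (SD).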

How the data were processed

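Sorted myeloid cells of 13 mice were profiled by RNA-Seq. Per the study's methods, adapters, low-quality and rRNA reads were removed and single-end reads were aligned to GRCm38 with GSNAP (version not given in the sources used here). The authors deposited, for each mouse, raw counts of uniquely aligned reads per gene and nRPKM values, an RPKM scaled by a size factor. Whether the counting used strand is not given in the sources used here, so reads of antisense partners cannot be told apart. Genes were named from GENCODE M21 for 52489 of 52636 identifiers.

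The deposited counts were tested with edgeR 4.0.16 in R 4.3.3 (filterByExpr by genotype, TMM scaling, glmQLFit and glmQLFTest, no covariate). The study used voom+limma, run here as an alternative (limma 3.58.1) with DESeq2 1.42.0, a filter at 10 counts in at least 6 mice or none at all, RLE in place of TMM, a sex covariate, the females by themselves, limma on nRPKM with a pseudocount of 0.1 or 1 before the log2, and each mouse left out. Leaving out 2 mice together was added after the data were seen. The standard error is the log2 fold change over the square root of F, and intervals use the test's degrees of freedom. The fits were tested on simulated data. Relations were computed in Python 3.11.15 with scipy 1.17.1, from log2 CPM with a prior count of 2. The limit that a count of 0 allows is 3 counts, 0.0249 to 0.115 CPM by mouse, for counting error only.

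Members and lists were chosen with earlier results of these data known. Named are the 9 members, the genes of the lists that passed or, failing 3, those with the smallest p, and the 3 genes most like Fth1, Ftl1 and Hmox1, some of which are not reported here. Shared sequence was counted in 50-base words of all GENCODE M21 transcripts on either strand.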

Additional observations from a re-analysis of the deposited data

Results flagged for a closer look

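In 18 groups of 6 or 7 mice (9 members in each genotype), 3 single mice stood apart from the rest of their group by Dixon's test at the 95% level, where chance gives about 0.9. The highest Tfrc value, 5.88 nRPKM in PS2APP;Trem2wt replicate 4, lay far above the next mouse. The highest Hmox1 value, 27.5 nRPKM, was that of PS2APP;Trem2wt replicate 3, which also had the highest Slc11a1 of all mice. The highest Slc11a1 value among PS2APP;Trem2ko mice, 133.0 nRPKM, was that of replicate 5, the 1 male of that group. The high Cp values of PS2APP;Trem2wt replicates 2 and 3 did not stand apart by this test, which looks at 1 mouse at a time.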

How the results depend on the processing

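Of 23 alternatives, 22 called 0 members, and DESeq2 called 1, Slc11a1. DESeq2 called 6 genes of the iron and heme lists, edgeR with sex as a covariate called 1, females only called 1, and with each mouse left out between 0 and 2 were called. The direction of Fth1, Tfrc, Slc11a1, Slc40a1 and Ireb2 held under all 23 alternatives. The members near 0 changed sign: Ftl1 had a log2 fold change of 0.0173 in voom+limma, 0.0067 with no filter and between -0.0613 and 0.0573 with each mouse left out, Slc11a2 of -0.0021 in voom+limma, -0.0523 in females only and between -0.0527 and 0.0669 with each mouse left out, and Hmox1 between -0.0970 and 0.0247. Without PS2APP;Trem2wt replicates 2 and 3 together, chosen after the data were seen, the values were 0.0688 for Ftl1, 0.0357 for Hmox1 and 0.16 for Cp, and -0.08 for Fth1 and 0.15 for Slc40a1, both closer to 0 by over 1.5 times. The male over female log2 fold change of Cp was -0.57 in voom+limma and between -1.10 and 0.63 with each male left out, and without PS2APP;Trem2wt replicate 2 it was -1.10. The cause of these shifts was not tested. No paired analysis was possible because the labels carry no pair numbers, although the methods describe mice of both genotypes processed together. The number of genes called over all ranged from 178 without those 2 mice to 862 in DESeq2, beside 348. At the depth of these libraries the members had 216 reads or more in every mouse, and what set the precision was not tested.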

Other observations

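For Cp and Slc11a1, chosen after their values were seen, the genes most like them within genotype were also listed, over 13 mice and 8522 genes, with no test. For Cp these were the complement gene C3 (r = 0.92), Clic4 (0.90) and the leukocyte gene Lsp1 (0.88). C3, Clic4 and Lsp1 had log2 fold changes of -1.18, -0.62 and 0.32 in PS2APP;Trem2ko cells (edgeR adjusted p = 0.304, 0.172 and 0.410). For Slc11a1 they were Ncln (0.95), Colgalt1 (0.93) and Flvcr1 (0.93), the last a heme exporter. Of the iron lists, Lcn2 and Hp were picked out after their values were seen. Lcn2, which binds bacterial iron carriers, ranged from 0.657 to 8.37 nRPKM in PS2APP;Trem2wt and from 0 to 2.30 in PS2APP;Trem2ko mice (log2 fold change -1.10 ± 0.76, SE; edgeR adjusted p = 0.539). Hp, which binds free hemoglobin, ranged from 0.450 to 2.70 nRPKM and from 0.128 to 1.29 (log2 fold change -0.96 ± 0.48, SE; edgeR adjusted p = 0.379). The neutrophil markers S100a8, S100a9, Camp and Ngp had log2 fold changes of -1.60, -1.60, -1.61 and -1.40 (edgeR adjusted p = 0.350, 0.309, 0.331 and 0.437), with 39.0, 48.3, 35.6 and 174 CPM in PS2APP;Trem2wt replicate 2, the highest of that group for each. The rest of the monocyte and neutrophil list was mixed. Plac8 (0.97) and Ccr2 (0.38) were positive (edgeR adjusted p = 0.414 and 0.710). Chil3 (-0.69) and Ly6c2 (-0.50) were negative (edgeR adjusted p = 0.616 and 0.854), and Ly6g had too few reads to test. The part of neutrophils in the Lcn2 and Hp values was not tested. Cd163, the receptor for that complex on perivascular macrophages, had a log2 fold change of 0.44 ± 0.22 (SE; edgeR adjusted p = 0.379).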
